A study of Mus musculus with 40 samples.

Results

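Pericyte genes were followed through brown adipose tissue of 40 mice in which the Notch ligands Jag1 and Jag2 had been blocked with antibodies. The set holds 10 of the 52636 genes in the count table: Cox4i2, Ndufa4l2, Higd1b, Rgs5, Kcnj8, Abcc9, Pdgfrb, Cspg4, Mcam and Vtn. They were taken by symbol, and the set was chosen by the antibody differences of Cox4i2 and Rgs5, which were lower under the Jag antibodies in these same mice. For the members the comparisons of antibodies are therefore a description, and their calls between antibodies are counted but not read as tests. Genes of other lists were also tested between antibodies. Those lists too were chosen with earlier results of these data known, so their calls are not independent of the data. Member tests were made only of the hormone, of time and of differences between comparisons. The member tests use the same mice. Since Cox4i2 and Rgs5 were chosen for their levels in them, their own hormone and time values are given without p. A call of Cox4i2 or Rgs5 in these comparisons is a description and not a test. All 10 genes passed the filter on low counts, with 10 to 149 reads per library for Cox4i2, the scarcest of them, and 1040 to 17701 for Rgs5, the most abundant.

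Pericytes are mural cells that sit on capillaries inside the basement membrane they share with the endothelium. Endothelial cells recruit them by secreting PDGF-B, which acts on the receptor encoded by Pdgfrb, and Jag ligands on neighbouring cells signal through Notch receptors, Notch3 above all in mural cells, to keep the mural state. In brown fat a dense capillary bed delivers oxygen and fuel for heat production, and pericyte tone helps set its blood flow.

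The mice were male C57BL/6 animals, 10 to 12 weeks old by the series text and 10 to 14 weeks old by the treatment protocol, with 5 mice in each of 8 groups. Control mice received 1 intraperitoneal dose of an anti-ragweed isotype antibody at 40 mg/kg, and Jag antibody mice received anti-Jag1 and anti-Jag2 at 20 mg/kg each. Tissue was taken after 15 h, 5 d or 7 d, and a further pair of groups at 7 d also received thyroxine (T4, 1 µg per g body weight) and triiodothyronine (T3, 0.05 µg per g) daily from day 2. The antibodies act on the whole animal, so an effect on the fat cannot be told apart from an effect that reached it from another organ. Control mice are numbered 1 to 5 and Jag antibody mice 6 to 10 in each group.

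Libraries held 12217623 to 36511893 counted reads. The tissue label was checked with 8 brown adipocyte markers, whose summed level was 9278 to 81680 CPM (counts scaled to library size) across mice, with none at 0 throughout a group. Skeletal muscle markers ranged from a summed 0.878 to 175926 CPM, and at 5 d every control mouse (1018 CPM or more) stood above every Jag antibody mouse (43.9 CPM or less). Libraries also differed in how their levels followed transcript length: the slope of log2 CPM on log2 exonic length, relative to the mean library, averaged -0.23 ± 0.21 (SD, n = 5) for 7 d controls and 0.17 ± 0.09 for controls given the hormones. The 3 most negative slopes belonged to control mice 2 and 5 at 5 d (-0.39 and -0.47) and control mouse 4 at 7 d (-0.56). Both properties are given below beside the results they move with.

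The members lie on different chromosomes apart from a few pairs. In the GENCODE M21 annotation of GRCm38, Kcnj8 (ENSMUSG00000030247, chr6:142564837-142571614) and Abcc9 (ENSMUSG00000030249, chr6:142587862-142702315) are neighbours on the minus strand with 16247 bases between them. They encode the pore and the regulatory sulfonylurea receptor of the same ATP-sensitive potassium channel. Cox4i2 (ENSMUSG00000009876) lies at chr2:152754173-152765037, Rgs5 (ENSMUSG00000026678) at chr1:169655501-169695813 and Ndufa4l2 (ENSMUSG00000040280) at chr10:127514967-127517154, all on the plus strand. Higd1b (ENSMUSG00000020928) lies at chr11:102835849-102838040 and Vtn (ENSMUSG00000017344) at chr11:78499091-78502324. Cspg4 (ENSMUSG00000032911) lies at chr9:56865033-56899870 and Mcam (ENSMUSG00000032135) at chr9:44134469-44142727, again on the plus strand. The annotated exons total 788 bases for Cox4i2, 847 for Higd1b, 1095 for Ndufa4l2, 2030 for Vtn, 2548 for Kcnj8, 3350 for Mcam, 4546 for Rgs5, 5478 for Pdgfrb, 8373 for Abcc9 and 11931 for Cspg4. Counting by strand is not given in the sources used here, so reads from the 32 exonic bases Ndufa4l2 shares with Shmt2, the 158 that Abcc9 shares with an antisense gene and the 17 that Mcam shares with another cannot be assigned.

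RefSeq promoters (GRCm38.p6, 250 bases before and 50 from the annotated start) were examined for 6 of the 10 members, and 4 are printed. These are Rgs5, whose antibody difference was among the largest of the set, and the neighbours Kcnj8 and Abcc9, whose products form 1 channel. The last is Vtn, whose window held the most matches. Capitals mark TGGGAA, the core letters bound by RBPJ, the DNA-binding partner of Notch, on either strand (TTCCCA where the match is on the other strand). These letters occur in 25.6% of the 32851 promoters in the table.
Rgs5 (chr1:169655251-169655550, plus strand): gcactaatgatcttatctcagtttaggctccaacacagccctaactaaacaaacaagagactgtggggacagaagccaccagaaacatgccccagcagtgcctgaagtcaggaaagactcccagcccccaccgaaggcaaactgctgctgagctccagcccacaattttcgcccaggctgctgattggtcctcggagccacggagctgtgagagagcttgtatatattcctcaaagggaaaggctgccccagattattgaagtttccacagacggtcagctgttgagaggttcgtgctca
Kcnj8 (chr6:142571565-142571864, minus strand): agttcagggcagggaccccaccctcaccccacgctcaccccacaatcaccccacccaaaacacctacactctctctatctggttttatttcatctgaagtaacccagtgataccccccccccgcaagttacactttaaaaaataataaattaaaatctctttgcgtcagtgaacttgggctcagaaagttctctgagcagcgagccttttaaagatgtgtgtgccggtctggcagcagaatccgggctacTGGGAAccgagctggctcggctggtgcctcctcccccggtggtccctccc
Abcc9 (chr6:142702225-142702524, minus strand): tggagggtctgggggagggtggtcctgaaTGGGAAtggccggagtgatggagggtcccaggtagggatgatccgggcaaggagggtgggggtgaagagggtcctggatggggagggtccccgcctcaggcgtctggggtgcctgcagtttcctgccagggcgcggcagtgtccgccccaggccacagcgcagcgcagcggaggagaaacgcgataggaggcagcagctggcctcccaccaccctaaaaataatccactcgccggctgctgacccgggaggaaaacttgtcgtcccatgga
Vtn (chr11:78498870-78499169, plus strand): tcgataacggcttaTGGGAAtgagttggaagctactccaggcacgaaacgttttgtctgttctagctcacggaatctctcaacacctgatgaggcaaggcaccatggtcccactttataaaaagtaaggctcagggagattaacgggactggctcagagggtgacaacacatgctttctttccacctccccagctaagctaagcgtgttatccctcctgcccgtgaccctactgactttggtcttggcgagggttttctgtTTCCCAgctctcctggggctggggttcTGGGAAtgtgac
The Rgs5 window held 0 matches, those of Kcnj8 and Abcc9 held 1 each, and that of Vtn held 3. The windows of Cspg4 and Mcam also held 0. A match is a run of letters and not a measured binding site.

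Per kilobase of exon, the members spanned more than an order of magnitude. Rgs5, which encodes a regulator of G protein signalling that damps signals from vasoactive receptors, was highest at 58.3 ± 38.6 CPM per kb (SD over the 40 mice). Mcam, an adhesion molecule that endothelial cells carry as well, followed at 28.0 ± 8.8 CPM per kb. The other 8 genes lay between 3.56 (Vtn) and 8.26 (Pdgfrb) CPM per kb.

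**Figure D1:**
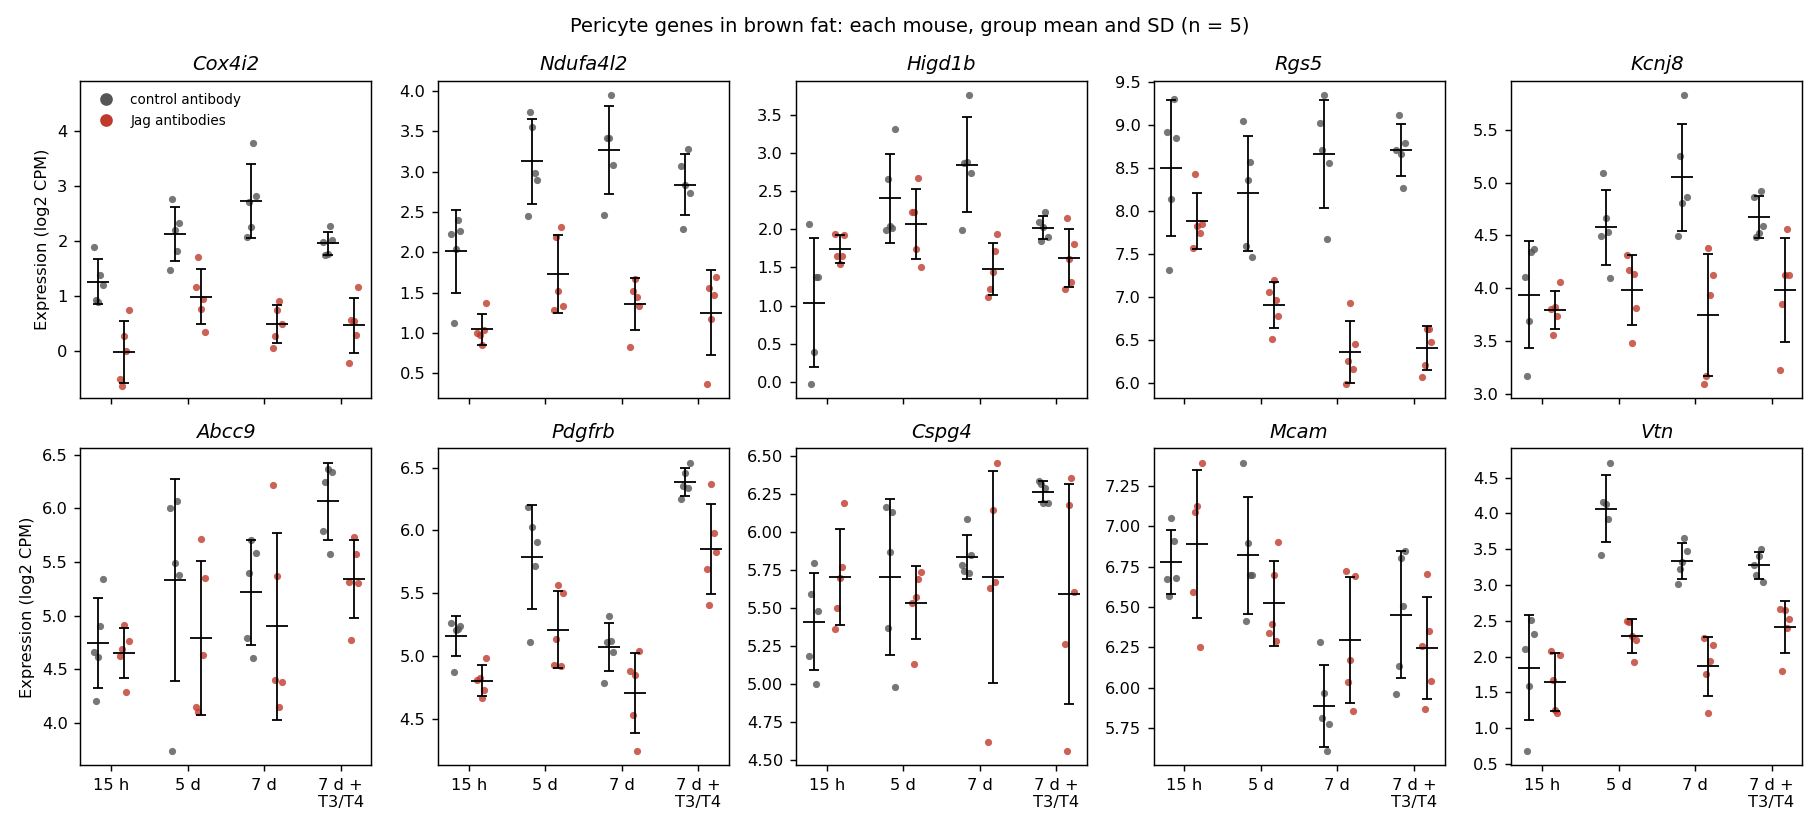
Expression of the 10 genes in every mouse, in log2 CPM (vertical axes, with a range of their own in each panel), by time and hormone (horizontal axes). Points are mice, bars the group mean and SD (n = 5), grey for the control antibody and red for the Jag antibodies. Red and grey points stand apart at 7 d for Cox4i2, Ndufa4l2, Higd1b, Rgs5, Kcnj8 and Vtn, and they overlap for Abcc9, Pdgfrb, Cspg4 and Mcam.

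Of the 3 mitochondrial genes of the set, Cox4i2 and Ndufa4l2 were lower under the Jag antibodies at every time, and Higd1b was not. Cox4i2, an isoform of a cytochrome c oxidase subunit with restricted tissue expression, differed from 15 h on. At 15 h the control mice, in order of their number, were at 1.90, 0.94, 0.90, 1.38 and 1.21 log2 CPM, and the Jag antibody mice at -0.50, -0.63, 0.28, 0.01 and 0.76. The groups did not overlap, and the fitted difference was 2.48-fold lower (log2 fold change -1.31, SE 0.33). At 7 d the control mice were at 2.07, 2.70, 2.25, 3.78 and 2.81 log2 CPM and the Jag antibody mice at 0.06, 0.28, 0.75, 0.92 and 0.49. Here too the groups were apart, and the difference was the largest for this gene, 5.26-fold lower (log2 fold change -2.40, SE 0.33). At 5 d it was 2.25-fold lower, with the highest Jag antibody mouse (1.71 log2 CPM) above the lowest control mouse (1.48), and at 7 d with hormone it was 2.81-fold lower with no overlap.

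Ndufa4l2, a mitochondrial protein related to the respiratory chain subunit Ndufa4 and known for its induction by low oxygen, differed in the same way. At 5 d the control mice were at 2.45, 3.75, 3.55, 2.99 and 2.90 log2 CPM, and the Jag antibody mice at 1.29, 2.19, 1.52, 2.31 and 1.33. At 7 d the control mice were at 2.47, 3.42, 3.42, 3.95 and 3.09 log2 CPM, and the Jag antibody mice at 0.83, 1.53, 1.67, 1.44 and 1.33. No Jag antibody mouse reached a control mouse at either time. From 15 h on the log2 fold changes were -1.05 (SE 0.29), -1.43 and -1.99, and with hormone -1.59. The groups overlapped only at 15 h, where control mouse 2 (1.12 log2 CPM) lay far under the other control mice.

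Higd1b, which encodes a small mitochondrial membrane protein of the hypoxia-inducible domain family, did not keep this order. At 15 h its log2 fold change was 0.54 (SE 0.32), with control mice from -0.03 to 2.07 log2 CPM around Jag antibody mice from 1.54 to 1.94. At 7 d the control mice were at 2.00, 2.87, 2.89, 3.76 and 2.73 log2 CPM and the Jag antibody mice at 1.11, 1.22, 1.44, 1.71 and 1.94. The groups were then apart and the difference was 2.76-fold lower. The groups overlapped at 5 d and in the hormone-treated mice, with log2 fold changes of -0.38 and -0.37.

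Rgs5 showed the other large difference, and it grew over the days after the antibodies. At 15 h the control mice were at 8.93, 7.31, 8.14, 9.30 and 8.86 log2 CPM, and the Jag antibody mice at 7.57, 8.44, 7.83, 7.74 and 7.85. The groups overlapped, with a log2 fold change of -0.74 (SE 0.30). At 5 d the control mice were at 9.05, 7.59, 8.36, 8.57 and 7.46 log2 CPM, and the Jag antibody mice at 7.06, 6.51, 7.20, 6.97 and 6.78. At 7 d the control mice were at 9.03, 8.71, 9.35, 7.68 and 8.56 log2 CPM, and the Jag antibody mice at 5.99, 6.25, 6.93, 6.17 and 6.46. The groups were apart at both of these times. Rgs5 was 2.65-fold lower at 5 d and 5.17-fold lower at 7 d, and 5.00-fold lower in the hormone-treated mice. The lowest control mice at 5 d and 7 d were those with the 3 most negative length slopes, and without them the log2 fold change was -1.81 at 5 d and -2.56 at 7 d. In the same 3 mice Cox4i2 was at 2.77, 2.34 and 3.78 log2 CPM. The control means of Cox4i2 were 2.12 at 5 d and 2.73 at 7 d.

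The neighbours Kcnj8 and Abcc9 had close log2 fold changes at 15 h (-0.20 and -0.12), 5 d (-0.60 and -0.59) and with hormone (-0.65 and -0.73), and unlike ones at 7 d (-1.30 and -0.15). The 5 d values moved apart to -0.66 and -0.17 with the muscle score in the model. With length and GC offsets they were -0.43 and -0.79. For the pore gene Kcnj8 at 7 d, the control mice were at 4.50, 5.26, 4.81, 5.83 and 4.86 log2 CPM and the Jag antibody mice at 3.09, 3.17, 4.38, 3.93 and 4.13. These groups were apart, with a 2.46-fold lower level, while at the other 3 times the groups overlapped. For Abcc9, the receptor subunit, the groups overlapped at every time (SE 0.36 each). At 7 d its Jag antibody mice spread from 4.15 to 6.22 log2 CPM and its control mice from 4.60 to 5.71, and without Jag antibody mouse 6 the value was -0.62. The difference between these 2 genes was not tested.

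The surface molecules by which pericytes are often identified differed less. Pdgfrb had log2 fold changes of -0.36, -0.60 and -0.35 from 15 h to 7 d and -0.50 with hormone (SE 0.17 each), and its groups overlapped each time. At 7 d its control mice were at 4.79, 5.12, 5.32, 5.12 and 5.03 log2 CPM and its Jag antibody mice at 4.88, 4.53, 4.85, 4.25 and 5.04. Cspg4, a membrane proteoglycan, had log2 fold changes from -0.54 to 0.29, and Mcam from -0.32 to 0.43, with overlapping groups throughout. At 7 d, where Rgs5 was 5.17-fold lower, Mcam was 1.35-fold higher in the Jag antibody mice and Cspg4 differed by a log2 fold change of -0.02.

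Vtn encodes vitronectin, a matrix and plasma glycoprotein that pericytes deposit in the vessel wall and the liver secretes. At 5 d the control mice were at 3.42, 4.16, 4.13, 3.92 and 4.71 log2 CPM, and the Jag antibody mice at 2.50, 2.48, 2.29, 1.92 and 2.23. The level was 3.59-fold lower with the groups apart. At 7 d it was 2.76-fold lower and at 7 d with hormone 1.81-fold lower, in both cases with the groups apart, whereas at 15 h the groups overlapped at a log2 fold change of -0.28. At 5 d the fitted difference was -1.46 with the muscle score in the model, beside -1.84 without it.

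**Figure D2:**
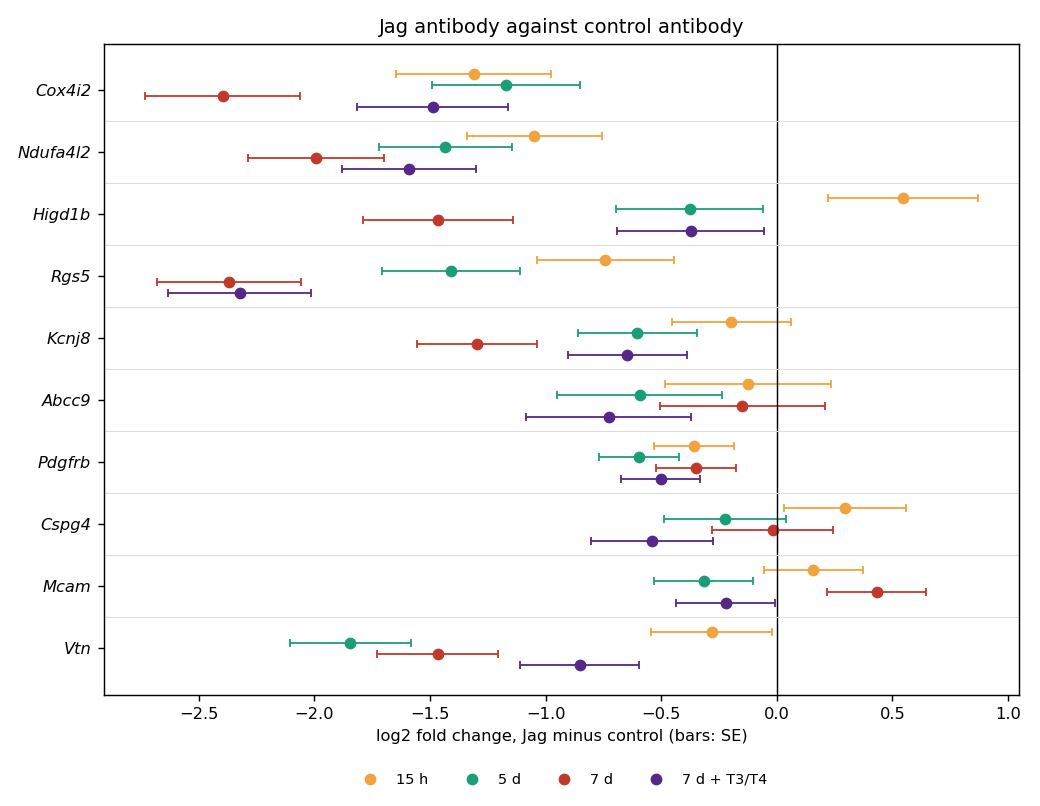
Log2 fold change of Jag antibody against control antibody mice (horizontal axis) for each gene, with bars of 1 SE, at the 4 times. Rgs5, Cox4i2, Ndufa4l2, Vtn, Kcnj8, Pdgfrb and Abcc9 lie left of 0 at every time, and Higd1b, Cspg4 and Mcam fall on both sides. Pdgfrb, Cspg4, Mcam and Abcc9 stay between -0.73 and 0.43.

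Over the set, 7 of 10 genes were lower at 15 h, 10 at 5 d, 9 at 7 d and 10 in the hormone-treated mice. The median log2 fold change was -0.24, -0.60, -1.38 and -0.69 in that order, beside -0.04, 0.04, 0.05 and -0.02 over the 17079 genes tested. The number called lower at an adjusted p under 0.05 (edgeR) was 1 of 10 at 15 h, where 0.902% of all genes were called lower, 5 at 5 d (5.93%), 6 at 7 d (1.29%) and 3 with hormone (0.439%). Groups stood apart, with the Jag antibody mice lower, for 1, 3, 6 and 4 of the members, beside 0.919%, 3.16%, 1.6% and 2.61% of all genes. Since these contrasts chose the members, nothing is read from the counts. In whole tissue, fewer pericytes and less RNA per pericyte cannot be told apart.

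Transcript length moved with part of this pattern. The 5 shortest members (Cox4i2, Higd1b, Ndufa4l2, Vtn and Kcnj8) were all lower at 7 d, with a median log2 fold change of -1.47. The 4 longer ones other than Rgs5 (Mcam, Pdgfrb, Abcc9 and Cspg4) had a median of -0.08. Rgs5, left out of both medians, was at -2.37. When each library's trends with length and GC content were removed, these medians became -1.32 and -0.36. Cox4i2 went from -2.40 to -1.93 and Higd1b from -1.46 to -1.03, whereas Rgs5, a long gene, stayed at -2.40 beside -2.37. At 7 d with hormone, where the slopes of the 2 groups were nearer (0.17 and 0.12), the offsets moved Cox4i2 from -1.49 to -1.57 and Ndufa4l2 from -1.59 to -1.54. There the medians of the shorter and longer sets were -0.85 and -0.52 as fitted, and -0.85 and -0.42 with the offsets.

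**Figure D3:**
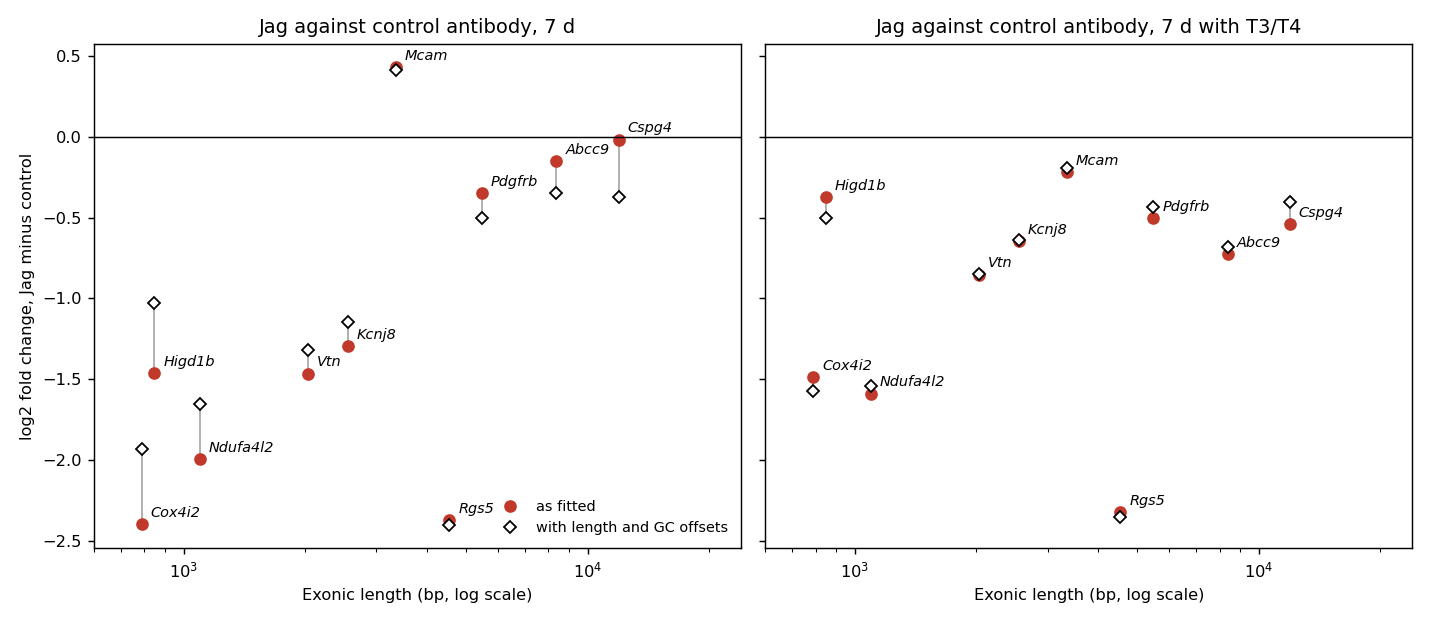
Log2 fold change of Jag antibody against control antibody mice (vertical axis) by exonic length in bases (horizontal axis, log scale), at 7 d on the left and 7 d with hormone on the right. Filled points are the values as fitted, open diamonds those with length and GC offsets, and lines join the 2 values of a gene. At 7 d the shortest genes move up towards 0 and Cspg4 and Abcc9 move down, while Rgs5 stays near -2.40.

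Markers of the other vascular and stromal cells were compared in the same way. Of 12 endothelial markers, which report on the cells that pericytes cover, 0 passed the edgeR quasi-likelihood test with Benjamini-Hochberg adjustment at 15 h, 5 d or with hormone, and at 7 d Vwf was higher and Emcn lower. The median over the 12 was 0.21 at 7 d (log2). Per mouse, Rgs5 minus the mean of the endothelial markers came to 2.95 ± 0.60 (log2, SD, n = 5) for 7 d controls and 0.55 ± 0.06 for Jag antibody mice. Kcnj8 minus the same mean was -0.67 ± 0.62 and -2.06 ± 0.32. Mcam went the other way, at 0.17 ± 0.45 and 0.49 ± 0.61. Cspg4 was at 0.12 ± 0.20 and -0.10 ± 0.44, Abcc9 at -0.50 ± 0.34 and -0.90 ± 1.02, and Pdgfrb at -0.64 ± 0.19 and -1.09 ± 0.43. On this measure the groups overlapped for Mcam, Cspg4, Abcc9 and Pdgfrb, and were apart for the other members. Of 10 smooth muscle markers, the contractile relatives of pericytes on larger vessels, 0 passed at 15 h, at 7 d or with hormone and 2 were lower at 5 d (Smtn and Synpo2). Of 10 fibroblast markers, Col3a1 was lower at 5 d, at 7 d and with hormone, by log2 fold changes of -1.69, -1.98 and -1.66, and 4 of the 10 were lower at 5 d. The part of fibroblast or muscle RNA in the pericyte values was not tested.

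A second list of 25 genes reported in pericytes, of which 24 were tested, was followed beside the 10. It was chosen with earlier results of these data known. Its median log2 fold change was -0.12, -0.44 and -0.36 from 15 h to 7 d, and -0.64 with hormone. By edgeR, Plxdc1 was called lower at 15 h (-1.79, SE 0.46) and 5 d (-1.89), Notch3 at 5 d, Rgs4 at 7 d (-1.11, SE 0.24), and Notch3, Rgs4 and Gucy1b1 at 7 d with hormone. Notch3 is the mural Notch receptor, Rgs4 a relative of Rgs5, and Gucy1b1 a subunit of the nitric oxide receptor. In the 4 antibody comparisons edgeR called 0 of the 24 higher. Of all 17079 genes, 40 were called higher at 15 h, 357 at 5 d, 207 at 7 d and 119 with hormone. The shares of all genes called lower were 0.902%, 5.93%, 1.29% and 0.439% in that order. Of 18 PDGF and Notch pathway genes, 1 was called lower at 15 h, Rbpj (-1.27, SE 0.28), and 0 later or with hormone, the ligand gene Pdgfb among those that did not pass.

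The widely expressed relatives of the mitochondrial members gave a comparison within the same libraries. Cox4i1, the general form of the subunit, averaged 3141 ± 1611 CPM per kb (SD, n = 5) in the 7 d controls, where Cox4i2 was at 9.09 ± 4.86 CPM per kb. In the Jag antibody mice Cox4i1 was at 2027 ± 573 CPM per kb and Cox4i2 at 1.71 ± 0.44. The log2 fold changes at 7 d were -0.63 for Cox4i1 (SE 0.32), -0.82 for Ndufa4 (SE 0.34) and -0.67 for Higd1a (SE 0.25), none of which passed the edgeR test (adjusted p = 0.256, 0.176 and 0.132, Benjamini-Hochberg). At 7 d with hormone the values were 0.40, 0.47 and -0.26, beside -1.49 for Cox4i2, -1.59 for Ndufa4l2 and -0.37 for Higd1b.

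The hormone comparisons ask whether T3 and T4 alone moved these genes. They reuse 7 d mice of the comparisons that chose the members, but contrast them along another factor. Pdgfrb rose with the hormones under both antibodies. In control mice it went from 4.79, 5.12, 5.32, 5.12 and 5.03 log2 CPM to 6.25, 6.35, 6.46, 6.34 and 6.54, and the groups did not overlap. This is 2.48-fold higher (log2 fold change 1.31, SE 0.17, adjusted p = 2.42e-06, edgeR quasi-likelihood test with Benjamini-Hochberg adjustment). In Jag antibody mice it went from 4.88, 4.53, 4.85, 4.25 and 5.04 log2 CPM to 5.69, 5.40, 6.37, 5.98 and 5.83, again without overlap, a 2.22-fold rise (edgeR adjusted p = 5.01e-05). Fibroblast genes rose beside it: Col1a1, Col3a1, Cd34 and Pdgfra passed in both arms and Lum in control mice, with Col1a1 up by log2 fold changes of 3.03 and 2.39. The share of fibroblast RNA in the rise of Pdgfrb was not tested.

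In control mice 3 more members passed, so that 4 of 10 were called where 43.2% of all genes were: 2 higher (20.3% of genes) and 2 lower (22.9%). DESeq2 and limma called 5 each, and edgeR with only the groups compared called 6. Abcc9 was among the calls of each of these, and missed the threshold in the main fit (0.82, edgeR adjusted p = 0.0625). Mcam rose (log2 fold change 0.59, SE 0.22, edgeR adjusted p = 0.0262), while 7 of 12 endothelial markers rose too and 2 fell. Cox4i2 was lower by a log2 fold change of -0.89 (SE 0.32), and Higd1b fell by 0.94 on the log2 scale (SE 0.32, edgeR adjusted p = 0.0169). The widely expressed Cox4i1, Ndufa4 and Higd1a fell in the same comparison, by 1.62, 1.73 and 1.04, as did 5 of 8 brown adipocyte markers (median over the 8, -1.69). Their part in the values of Cox4i2 and Higd1b was not tested. With length and GC offsets the log2 fold changes of Cox4i2 and Higd1b were 0.06 and -0.03 and neither passed, while Pdgfrb (0.95) and Mcam (0.56) still did. Leaving out control mouse 4 at 7 d, whose length slope was the most negative, also ended the calls of Cox4i2 (-0.52) and Higd1b (-0.64), and the call of Cox4i2 was lost without hormone-treated control mouse 3 as well. Mcam missed the threshold without control mouse 2 or 4 at 7 d or hormone-treated control mouse 3 or 5, with an adjusted p of up to 0.0778 (edgeR).

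In Jag antibody mice Pdgfrb was the only member called, where 9.5% of genes were. Rgs5 did not pass in either arm. Its log2 fold change was -0.02 (95% interval -0.60 to 0.55) in control mice and 0.02 (-0.56 to 0.60) in Jag antibody mice. Since Rgs5 was chosen for its levels in these mice, these values are a description and not a test. The antibody by hormone interaction, which asks whether the antibody difference changed under hormone, passed for 0 of 10 members by edgeR, DESeq2 and limma, and for 1 gene (0.00586%) of all tested. At an unadjusted p under 0.05, 2 members passed in edgeR (Higd1b and Mcam), 3 in DESeq2 and 2 in limma. Both arms of this contrast are antibody comparisons, so its member tests are not independent of the choice of genes. For Rgs5 the interaction was 0.05 (95% interval -0.77 to 0.86, log2), given as a description.

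In control mice several members rose between 15 h and the later times. At 7 d against 15 h, 6 of 10 passed, where 45.1% of all genes did: 5 higher (21.6% of genes) and 1 lower (23.5%). Cox4i2 went from 1.90, 0.94, 0.90, 1.38 and 1.21 log2 CPM to 2.07, 2.70, 2.25, 3.78 and 2.81, with no overlap (2.98-fold higher). Higd1b rose 3.40-fold, Vtn 2.64-fold, Ndufa4l2 2.44-fold and Kcnj8 2.18-fold, and Mcam fell by 0.88 on the log2 scale (SE 0.22, edgeR adjusted p = 0.00128). Rgs5 and Pdgfrb did not pass, at log2 fold changes of 0.11 (95% interval -0.47 to 0.68) and -0.08 (-0.42 to 0.25). The Rgs5 value is a description and not a test.

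The relatives Cox4i1, Ndufa4 and Higd1a rose over the same interval by log2 fold changes of 1.46, 1.56 and 1.83, as did Ucp1 and 3 more of the 8 brown adipocyte markers, and 5 of 6 macrophage markers fell. Of 10 smooth muscle markers 5 rose (Cnn1, Myh11, Tagln, Acta2 and Actg2, with a median of 1.53 over the 10), and so did 5 of 12 endothelial markers. The part of these cells in the rise of the pericyte genes was not tested. With length and GC offsets the rise of Cox4i2 was 0.60 and that of Higd1b 0.99, both still called by edgeR, whereas Ndufa4l2 (0.31) was not. Abcc9 (0.90) and Cspg4 (0.57) then passed as higher.

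At 5 d against 15 h in control mice, 5 of 10 members passed, all higher, where 36.4% of genes passed and 16.2% were higher: Vtn by 4.54-fold, Higd1b by 2.48-fold, Ndufa4l2 by 2.21-fold, Cox4i2 by 1.86-fold and Pdgfrb by 1.59-fold. None passed in edgeR when the fit was limited to these 2 groups, with 6 members at an unadjusted p under 0.05, and DESeq2 and limma called 6 each over all groups. Of 10 fibroblast markers 6 rose as well (Col1a1, Fbln1, Dcn, Pi16, Col3a1 and Lum), and the 8 skeletal muscle markers had a median log2 fold change of 4.25, with 0 of 8 called by edgeR. Their part in the rise of Pdgfrb, Vtn and the others was not tested. With length and GC offsets Cox4i2 (0.18) and Ndufa4l2 (0.34) missed the threshold and Abcc9 passed as higher (1.07, beside 0.74 without them). Cox4i2 also missed it without control mouse 2 or 3 at 15 h or control mouse 2 at 5 d.

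**Figure D4:**
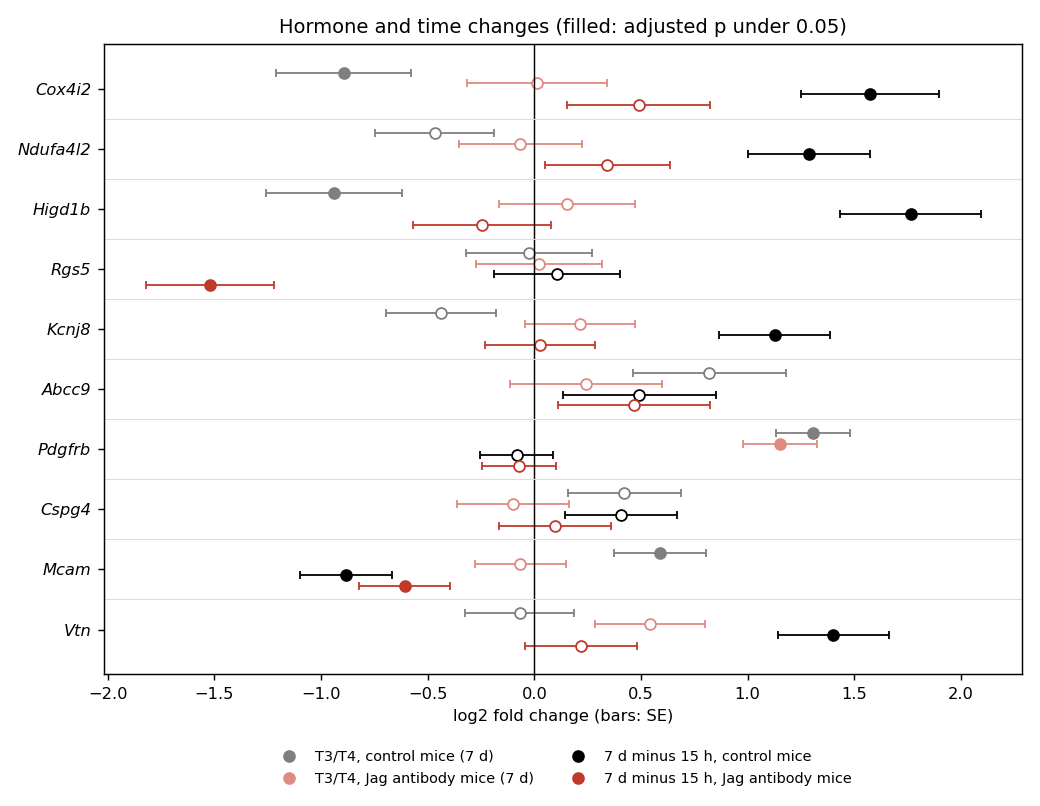
Log2 fold change (horizontal axis, bars of 1 SE) of each gene for the hormones at 7 d and for 7 d against 15 h, in control and in Jag antibody mice. Filled points passed the edgeR test at an adjusted p under 0.05. For Cox4i2 and Rgs5, chosen for their levels in these mice, a filled point is a description. Pdgfrb lies right of 0 for the hormones in both arms (1.31 and 1.15), and Rgs5 lies left of 0 over time in Jag antibody mice (-1.52) and near 0 in control mice (0.11).

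In Jag antibody mice Rgs5 and Mcam were the members called at 7 d against 15 h. Rgs5 and Cox4i2 were chosen for low levels under the Jag antibodies, so their calls in this arm are a description. Rgs5 went from 7.57, 8.44, 7.83, 7.74 and 7.85 log2 CPM at 15 h to 5.99, 6.25, 6.93, 6.17 and 6.46 at 7 d. The groups did not overlap, and the log2 fold change was -1.52 (SE 0.30). At 5 d against 15 h it was -0.99 (SE 0.30), a call that was lost without Jag antibody mouse 7 at 15 h or at 5 d and with the offsets (-0.62). Mcam had a log2 fold change of -0.61 at 7 d (edgeR adjusted p = 0.0445), and 18.3% of all genes were called. Leaving out any of 6 single mice ended the Mcam call, with an adjusted p of up to 0.144. At 5 d against 15 h Cox4i2 was higher by 1.04 (SE 0.33) and was called with Rgs5, where 14.5% of genes were called. That call was lost on leaving out any of 7 of the 10 mice and with the offsets (0.57).

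Whether the antibody difference itself changed between 15 h and 7 d was tested as an interaction. It passed in edgeR for 2 of 10 members, where 1.31% of genes passed: Higd1b (-2.01, SE 0.46, adjusted p = 0.0231) and Rgs5 (-1.63, SE 0.42), both lower at 7 d relative to 15 h (0.269% of genes). Both arms of this contrast are antibody comparisons, so the Rgs5 value is a description and the Higd1b test is not independent of the choice of genes. Cox4i2 (-1.08), Vtn (-1.18), Kcnj8 (-1.10) and Ndufa4l2 (-0.94) did not pass. Neither Higd1b nor Rgs5 passed when the fit held these 4 groups only. The Higd1b call was lost without control mouse 2 or 3 at 15 h, control mouse 2 or 4 at 7 d or Jag antibody mouse 6 at 7 d (edgeR adjusted p up to 0.079), and the Rgs5 call was lost in 14 of the 20 fits that left out 1 mouse. The interval for Pdgfrb was -0.47 to 0.49 around 0.01, and that for Abcc9 -1.02 to 0.97 around -0.02. From 15 h to 5 d, 0 of 10 members passed in edgeR, where 0.0995% of genes did. That contrast too is a difference of antibody comparisons, so its member tests are not independent of the choice of genes. Vtn and Higd1b were at an unadjusted p under 0.05, and DESeq2 and limma each called Vtn (-1.56 in edgeR, adjusted p = 0.0621). With the muscle score in the edgeR model Vtn was at -1.14 (adjusted p = 0.404), and with only the groups compared its adjusted p was 0.148. In the edgeR test Vtn passed on leaving out any of 5 single mice, among them control mouse 2 at 5 d, and the adjusted p ran from 0.0239 to 0.129.

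Across the 40 mice 9 of the 10 members could be described as 2 sets by how they varied inside groups, picked after their correlations were seen. Deviations from the group means correlated at 0.54 to 0.71 (Pearson's r) over the 6 pairs of Cox4i2, Higd1b, Ndufa4l2 and Kcnj8. Among Rgs5, Abcc9, Pdgfrb, Cspg4 and Mcam all 10 pairs were positive, from 0.12 to 0.71, and of the 20 pairs between the sets only 4 were positive. Vtn belonged to neither: it correlated at 0.52 with Higd1b, 0.27 with Cox4i2, 0.24 with Pdgfrb and -0.24 with Cspg4. The sets also split by the length slope of the library: inside groups Cox4i2 correlated with that slope at -0.65 and Higd1b at -0.66, and Rgs5 at 0.62 and Abcc9 at 0.64. These correlations describe mice that share library depth, scaling and length trend, and the part of the length trend in them was not tested.

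The genes most like Cox4i2 in log2 CPM over the 40 mice, of 12140 with a mean of at least 1, were Ndufa4l2 (r 0.93), Kcnj8 (0.83), Unc119 (0.82), Lmo1 (0.80) and Tmem88 (0.76). For deviations from the group means the list was Bscl2, Tmem203, Mrpl17, Cox8a and Med9, at r from 0.73 to 0.76. Those most like Rgs5 were Gucy1b1 (0.83), Aspn (0.76), Serpini1 (0.75), Akap5 (0.72) and Ajuba (0.72). For deviations they were the angiopoietin receptor gene Tek (0.90), Jam2 (0.88), Ablim3 (0.88), Itga1 (0.87) and Afdn (0.87). Over all mice, without removing the group means, Tek correlated with Rgs5 at 0.02.

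**Figure D5:**
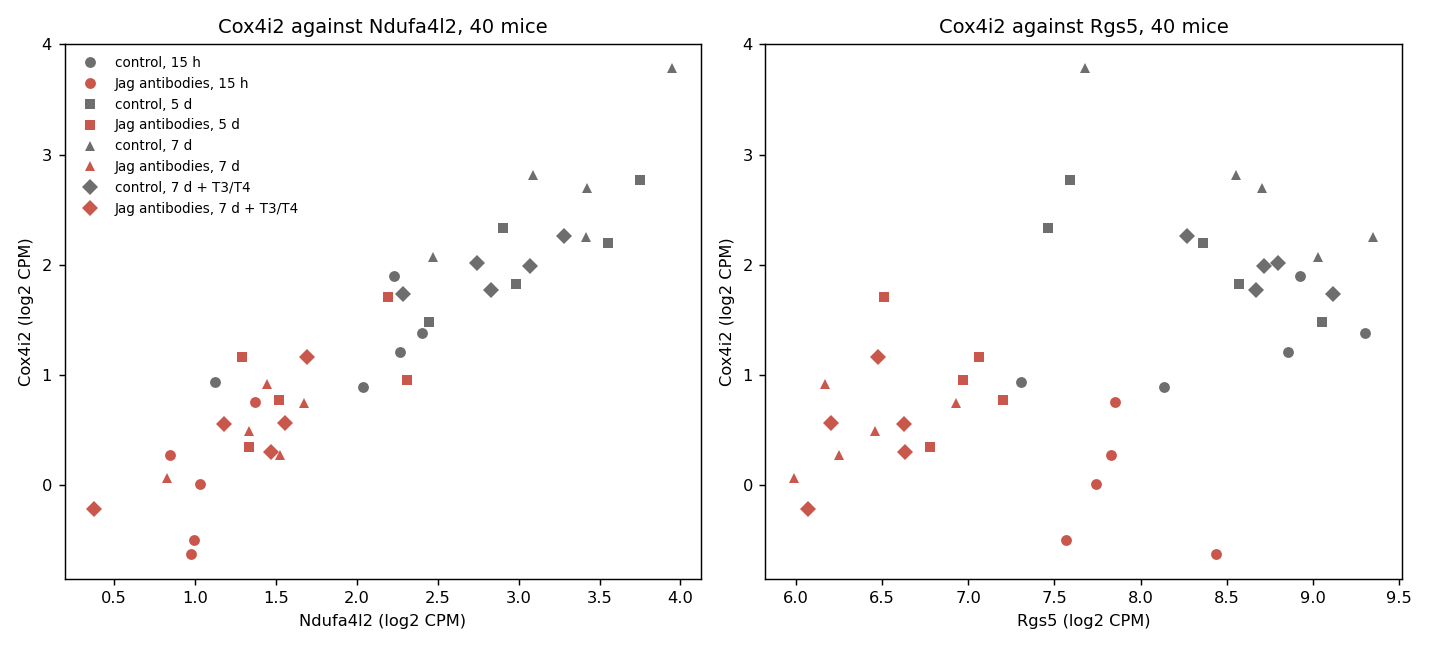
Cox4i2 (vertical axes, log2 CPM) against Ndufa4l2 on the left and Rgs5 on the right (horizontal axes, log2 CPM) in the 40 mice, with colour for the antibody and shape for time and hormone. On the left all groups follow 1 rising band. On the right the 3 control mice with the most negative length slopes have the lowest Rgs5 of their own groups, and Cox4i2 above the group mean.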

How the data were processed

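RNA from brown adipose tissue of 40 mice, 5 in each of 8 groups that the labels number as separate animals, was read as 50-base single-end reads. The authors deposited raw read counts per Ensembl gene and FPKM values, with alignment by GSNAP and analysis with limma per the submitters' processing notes. The genome build, the counting and its use of strand are not given in the sources used here. In the deposited FPKM table each value was a count divided by a library factor and a gene length, and that length was within 1% of a constant times the genomic span for 84.8% of 14271 genes. Symbols came from GENCODE M21, which matched 52403 of 52636 identifiers.

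Differences in counts came from edgeR 4.0.16 under R 4.3.3 (TMM scaling, quasi-likelihood, all groups in the fit, 17079 genes after filterByExpr), with Benjamini-Hochberg adjustment over all genes and a threshold of 0.05. Levels are log2 CPM with a prior count of 2. Alternatives used DESeq2 1.42.0, limma 3.58.1 on log2(FPKM + 1), RLE scaling, no low-count filter, only the groups compared, a muscle score, length and GC offsets (splines with 4 degrees of freedom), a replicate block and leaving out each mouse. The scripts were tested on simulated data.

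The members and gene lists were chosen with earlier results of these data known. All members, list genes that were called, the relatives Cox4i1, Ndufa4 and Higd1a, and for Cox4i2 and Rgs5 the 5 genes of highest correlation on each measure could be named. Of 6 Schwann cell markers, S100b fell with hormone under both antibodies and rose at 7 d. A gene of the second pericyte list is not reported here.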

Additional observations from a re-analysis of the deposited data

Results flagged for a closer look

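Control mouse 2 at 15 h stood apart from the other 4 mice of its group for 2 genes. Its Ndufa4l2 level was 1.12 log2 CPM, with the next mouse at 2.04, and its Pdgfrb level was 4.88 log2 CPM, with the next at 5.21. Across the 80 sets of 5 mice examined, 2 were picked out in this way, where chance gives about 4 (1 in 20).

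The antibody difference changed between 15 h and 7 d for Higd1b (log2 difference -2.01) and for Rgs5 (-1.63), by the interaction term in edgeR. Both values are differences of antibody comparisons, the kind from which the genes were chosen.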

How the results depend on the processing

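The number of members called varied with the processing, and the counts named in the results are those of edgeR with all groups. With length and GC offsets the hormones gave 2 calls in control mice and 2 in Jag antibody mice, 5 d against 15 h in Jag antibody mice gave 0, and the Cox4i2 hormone value in control mice turned to 0.061. With only the groups compared, 5 d against 15 h gave 0 calls in control mice and 1 in Jag antibody mice, 7 d against 15 h in Jag antibody mice gave 1, and the 7 d interaction gave 0. Without the low-count filter, 5 d and 7 d against 15 h in Jag antibody mice gave 1 call each and the 7 d interaction gave 1, and the Cspg4 antibody value at 7 d was 0.0039. By limma, 5 d against 15 h in Jag antibody mice gave 1 call, and the 5 d and 7 d interactions gave 1 each. DESeq2 gave 1 for the 5 d interaction. For the hormones in control mice DESeq2 and limma gave 5 calls each, and the fit with only the groups compared gave 6. Without the 3 libraries of length slope under -0.35, an alternative chosen after seeing the data, the hormones gave 1 call in control mice, 5 d against 15 h in Jag antibody mice gave 4, and Higd1b at 5 d under the antibodies was 0.078. The median antibody difference of the members was -0.34 (limma) and -0.84 (those 3 libraries left out) at 5 d. At 7 d it was -1.09 (offsets), -0.75 (limma) and -1.13 (3 libraries left out), and with hormone -0.37 (limma). The cause of these shifts was not tested.

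With each mouse omitted in turn there were 1 to 5 calls for the hormones in control mice and 4 to 6 for 5 d against 15 h in control mice. In Jag antibody mice it gave 0 to 2 calls for 5 d and 1 to 2 for 7 d against 15 h, and the interactions gave 0 to 1 (5 d) and 0 to 3 (7 d). Medians ran from -0.38 to -0.08 at 15 h, -0.83 to -0.56 at 5 d, -1.49 to -1.10 at 7 d and -0.80 to -0.61 with hormone. Abcc9 ran from -0.23 to 0.055 at 15 h and from -0.62 to 0.028 at 7 d, and Cspg4 from -0.23 to 0.17 at 7 d, with 0.05, 0.02 and 0.02 among its values above 0.

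Mice that share a number in the labels were not shown to be paired: the correlation of same-numbered mice ran from -0.34 to 0.73. Its mean per comparison was 0.08 to 0.19, beside -0.05 to -0.02 for mice of unlike numbers. What this difference reflects was not tested. With the replicate block the 5 d interaction gave 1 call and the 7 d interaction 0. With the replicate block and the offsets together, the hormones gave 2 calls in control and 2 in Jag antibody mice, 5 d against 15 h in Jag antibody mice gave 0, the interactions gave 1 each, and Cox4i2 under hormone in control mice was 0.065. From 1 to 4 of 5 mice correlated best with their own number.

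Cox4i2, with 10 to 149 reads per library, is limited by counting more than Rgs5 is.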
